A study of Mus musculus with 6 samples.

Results

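Transcripts of P1 pups were compared on the 3 arrays, of 6 in the series, that lie on 1 slide: the female 2 mg array, the male 2 mg array and the first replicate of the female 20 mg array. The slide was taken from the header of each array file, and no measured transcript level entered the choice. All 3 pools came from C57BL/6J litters whose dams ate an amino acid-based AIN-93G diet with folic acid (FA) at 2 mg or 20 mg per kg of diet, from before mating through gestation. Each array held a pool of 3 pups of 1 sex at postnatal day 1, so 2 pools stand for the 2 mg FA group and 1 pool stands for the 20 mg FA group. The titles give the tissue as cerebellum, while a field of the labels gives whole brain.

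Folate carries the single-carbon units that cells use for nucleotide synthesis and, through methionine, for methylation of DNA and histones. The newborn cerebellum is a growing tissue in which granule cell precursors still divide and Purkinje cells have begun to align. The fourth ventricle with its choroid plexus, the meninges and the hindbrain lie against it, and their marker transcripts report what a dissected pool contained. In a pool, fewer cells of a type and less RNA per cell cannot be told apart.

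Each value below is the log2 of the background-subtracted brightness of a probe after the 3 arrays were given 1 common distribution, and differences are the 20 mg array minus the mean of both 2 mg arrays unless another pair is named. A difference of 1 on this scale is a change of 2-fold. Of 55681 probes, 34194 (61.4%) were well above background on all 3 arrays and were tested. The 20 mg array was the brightest of the slide, with 71.9% of probes well above background and a median processed signal of 178, against 63.6% and 102 on the female 2 mg array and 65.8% and 130 on the male 2 mg array. It lies in slide row 1, while both 2 mg arrays lie in slide row 2, so slide row and dose cannot be told apart. Sex-linked transcripts fitted the labels. Xist, the noncoding RNA of the inactive X chromosome, stood at 11.22 on the female 2 mg array and 12.39 on the 20 mg array and did not rise well above background on the male 2 mg array. The Y-linked Ddx3y stood at 12.01 on the male 2 mg array and not above background on the female arrays, while Eif2s3y, also Y-linked, stood at 13.35 on the male 2 mg and 5.13 on the 20 mg array.

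The 20 mg array stood further from each 2 mg array than these stood from each other. The female and the male 2 mg array differed by a median of 0.21, and 95% of probes differed by less than 0.77. The 20 mg array differed by a median of 0.37 from the female and 0.29 from the male 2 mg array, with 95% of probes within 1.34 and 1.12. At least 2.5-fold apart were 361 probes between the 2 mg arrays, 1763 probes between the 20 mg and the female 2 mg array, and 1086 probes between the 20 mg and the male 2 mg array. Repeated spots of 1 probe on 1 array, counted over 315 probes with at least 5 spots, had a median SD of 0.062 to 0.065.

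**Figure D1:**
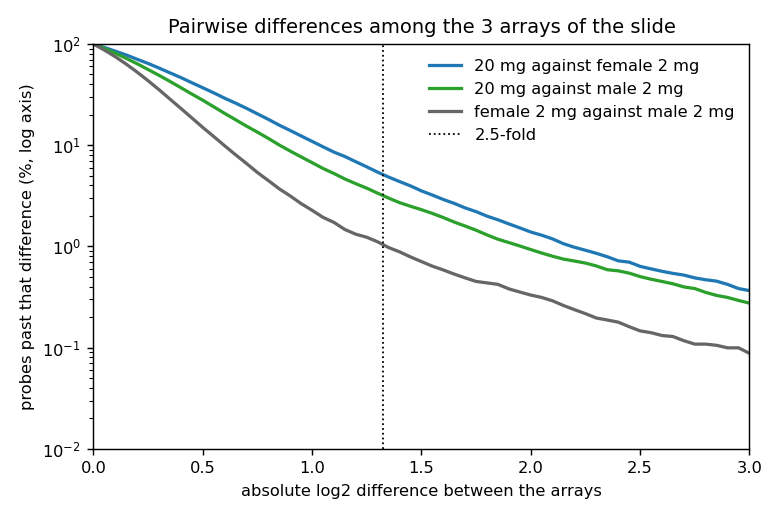
Share of the 34194 tested probes (vertical log axis, %) whose absolute log2 difference between a pair of arrays exceeds the value on the horizontal axis. The curve for the 2 mg arrays lies below both curves for the 20 mg array, and at the dotted line of 2.5-fold it stands for 361 probes against 1763 and 1086.

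Among the called probes, more were lower than higher on the 20 mg array. Of all tested probes, 42.0% lay above both 2 mg arrays and 38.8% below both. The limma model, in which the gap between the 2 mg arrays gives the only residual degree of freedom and the lone 20 mg pool is assumed to vary like them, called 594 probes higher (1.74%) and 1125 probes lower (3.29%) at an adjusted p under 0.05. The gap between the 2 mg arrays also holds the difference between the sexes. Without the filter on dim probes the limma balance turned, with 893 probes higher and 10 lower. Without adjustment, 11.2% of tested probes were higher and 11.0% lower at a p under 0.05. A stricter fold rule asked that the 20 mg array lie at least 2.5-fold above or below both 2 mg arrays and further from the nearer one than these lie from each other. It was met by 184 probes above (0.538%) and 533 probes below (1.56%), and limma called all 717 of them in the same direction with an adjusted p of at most 0.0366. Over 4-fold beyond the nearer 2 mg array lay 13 of the higher and 193 of the lower probes. At the threshold itself the distance to the nearer 2 mg array was 1.33 just inside and 1.32 just outside in the higher direction, and 1.32 on either side in the lower one. For scale, the female 2 mg array was at least 2.5-fold above the male 2 mg array at 0.605% of probes, and the male above the female at 0.45%.

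Signal on the 2 mg arrays enters the fold rule, so it is given as a description. The median signal on the 2 mg arrays was 7.36 for the higher probes, 9.62 for the lower probes and 9.46 for all tested probes. Among the 8549 brightest probes 2 met the fold rule upward and 104 downward, while among the 8549 dimmest 91 met it upward and 69 downward.

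Of the 12 leading up-regulated genes, Tfap2e, Tbx21 and Sp8 are known from the olfactory bulb. Tfap2e, which encodes a transcription factor of the AP-2 family found in mitral cells of the bulb, stood at 5.82 on the female and 5.65 on the male 2 mg array and at 9.29 on the 20 mg array (difference 3.56, SE 0.32, limma adjusted p = 0.000291; probe at chr4:126393440-126393499 in mm9). Tbx21, a T-box factor of bulb projection neurons and of T helper cells, stood at 6.66 and 6.21 on the 2 mg arrays and at 9.37 on the 20 mg array (difference 2.93, SE 0.34, limma adjusted p = 0.00112). Sp8, a zinc-finger factor of bulb interneurons, rose from 9.89 and 8.87 to 12.22. The 2 mg arrays lay 0.18 apart in Tfap2e, 0.45 apart in Tbx21 and 1.02 apart in Sp8, and the 20 mg array lay above both in all 3 genes. A second probe of Sp8 differed by 0.21. With another background correction (normexp), which models the background in place of subtracting it, the difference of Tfap2e was 2.33.

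A list of bulb genes was drawn up after these values had been seen, so its counts describe and support nothing. On it, 13 of 14 genes were tested, limma called 6 higher and 0 lower, 5 met the fold rule, and the median difference was 0.98 against 0.02 over all tested probes. At an unadjusted p under 0.05, 2 of its genes were lower. Cdhr1, a cadherin of mitral cells and photoreceptors, rose from 10.22 and 10.14 to 12.14. Slc17a7, the vesicular glutamate transporter VGLUT1, rose from 6.19 and 5.73 to 7.58 (by 0.85 with normexp, against 1.62). Etv1, an ETS-family factor, rose from 13.02 and 12.63 to 13.77, with 1 of its 2 tested probes called. Eomes, a T-box factor shared with unipolar brush cells of the cerebellum, stood at 10.64, 11.04 and 11.82 and was not called (adjusted p = 0.065). Omp, the marker of mature olfactory sensory neurons, stood at 7.46, 7.06 and 7.85, and Th, which periglomerular neurons express, at 11.83, 12.01 and 11.19. Neither was called.

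Other leading up-regulated genes had varied roles. Slc4a7, a sodium bicarbonate cotransporter, stood at 12.86 and 11.82 on the 2 mg arrays and at 15.77 on the 20 mg array, while its second probe differed by only 0.50. Atp6ap1l, related to an accessory subunit of the vacuolar proton pump, rose from 7.02 and 7.47 to 10.21. Tfap2c, another AP-2 factor, rose from 7.04 and 6.84 to 9.29. Slc7a11, the cystine and glutamate exchanger, rose from 6.15 and 6.05 to 8.18 (by 1.27 with normexp, against 2.08). The dual-specificity kinase Dstyk rose from 7.27 and 7.86 to 9.80, and the ubiquitin ligase Mid1 rose from 5.95 and 6.26 to 8.19 (by 1.23 with normexp, against 2.09). Olfr224, an odorant receptor, rose from 6.78 and 6.84 to 9.25, and the less studied Gm5039 and 9130024F11Rik were at 8.64 and 11.40 on the 20 mg array, each 3.86-fold above the nearer 2 mg array.

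**Figure D2:**
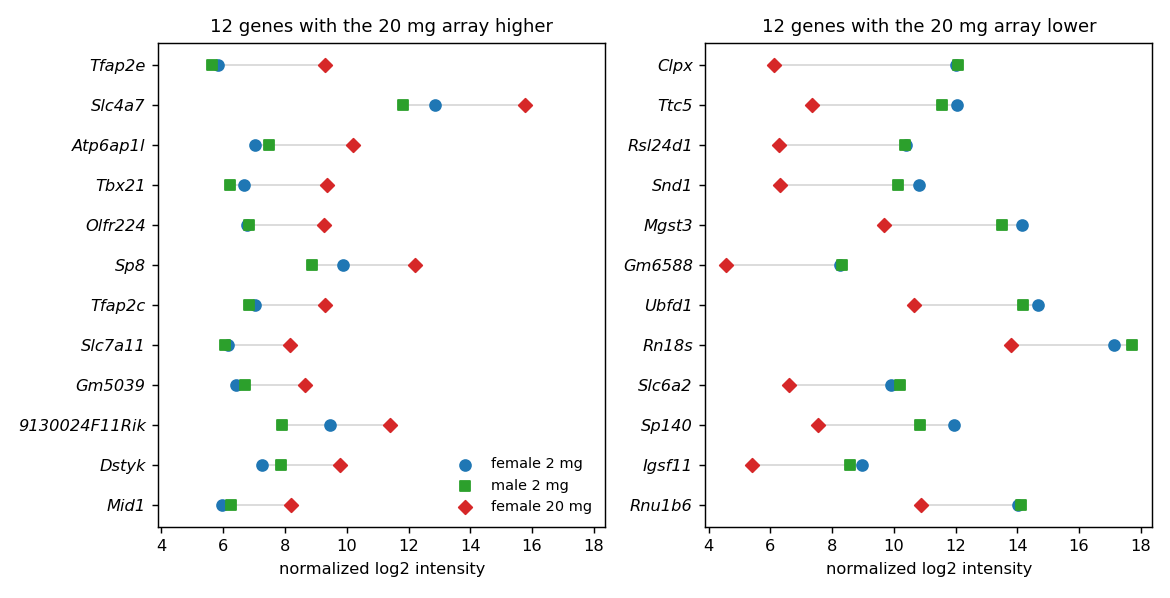
Normalized log2 intensity (horizontal axis) of the 12 higher and 12 lower genes with the largest distance to the nearer 2 mg array, by the fold rule; circles are the female 2 mg, squares the male 2 mg and diamonds the female 20 mg array. Clpx shows the widest distance, from 12.03 and 12.06 at 2 mg to 6.11 at 20 mg.

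Markers of the choroid plexus, the epithelium that secretes cerebrospinal fluid, were also higher. Of 13 tested markers, limma called 4 higher and 0 lower, 8 were higher and 0 lower at an unadjusted p under 0.05 (11.2% and 11.0% of all tested probes), and 11 lay above both 2 mg arrays, as did 42.0% of all tested probes. Ttr, the transthyretin that carries thyroid hormone, stood at 12.74 on the female 2 mg array, 15.76 on the male 2 mg array and 17.57 on the 20 mg array (difference 3.32, SE 0.82, limma adjusted p = 0.0464). Against the male 2 mg array alone it was higher by 1.81. The chloride channel protein Clic6 stood at 8.71, 10.32 and 11.93 in the same order, and the water channel Aqp1 at 8.74, 10.19 and 11.77. These genes were graded over the 3 pools, lowest in the female 2 mg pool and highest in the 20 mg pool. Enpp2, the lysophospholipase autotaxin, rose from 13.64 and 13.90 to 15.20. The median gap of the 13 markers between the 2 mg arrays was 1.04. At least 2.5-fold higher in the male than in the female 2 mg pool were 5 of them, against 0.45% of all tested probes. Folr1, the folate receptor of the choroid plexus, followed the same order with 8.70, 9.89 and 10.90 and was not called (adjusted p = 0.0563).

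Hox genes, which mark the hindbrain and spinal cord behind the cerebellum, separated the 2 mg pools from each other. All 19 tested Hox genes were at least 2.5-fold higher in the female than in the male 2 mg pool, by 1.46 to 4.89 on the log2 scale, against 0.605% of all tested probes. Hoxc6 stood at 10.52 on the female 2 mg array, 5.63 on the male 2 mg array and 10.90 on the 20 mg array. Hoxb8 stood at 12.39, 8.53 and 12.22, and Hoxa5 at 13.43, 10.75 and 10.55. Their median difference of the 20 mg array was 0.02 against the female and 2.58 against the male 2 mg array. By limma 0 Hox genes were called. At an unadjusted p under 0.05, 4 were higher and 0 lower, against 11.2% and 11.0% of all tested probes. The other 10 Hox genes on the array were not well above background on all 3 arrays.

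Forebrain markers also differed between the 2 mg pools. Dlx1, a homeobox factor of forebrain interneurons, stood at 8.98 on the female 2 mg array, 5.54 on the male 2 mg array and 10.97 on the 20 mg array. Dlx2, its neighbour and relative, stood at 10.33, 7.33 and 11.46, so the signal of both was present in every pool. Of 13 tested, 6 were at least 2.5-fold higher in the female than in the male 2 mg pool, against 0.605% of all tested probes. On the 20 mg array 8 were higher than on both 2 mg arrays, against 42.0%. At an unadjusted p under 0.05, 6 were higher and 2 lower, against 11.2% and 11.0%. By limma 0 were called higher and 2 lower, against 1.74% and 3.29%. Lhx6, a factor of cortical interneurons, fell from 15.00 and 14.69 to 13.93, and Six3, a factor of the anterior neural plate, fell from 10.53 and 10.48 to 9.15.

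Hypothalamic neuropeptides set the female 2 mg pool apart. Avp, which encodes vasopressin, stood at 10.85 on the female 2 mg array, 5.98 on the male 2 mg array and 6.05 on the 20 mg array, and Oxt, which encodes oxytocin, at 9.72, 6.64 and 6.87. Of 12 tested neuropeptide genes, 5 were at least 2.5-fold higher in the female than in the male 2 mg pool, against 0.605% of all tested probes. By limma only Sst (somatostatin) was called, lower, from 15.14 and 15.12 to 14.25. The part that tissue neighbouring the cerebellum took in the differences of the 20 mg pool was not tested.

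**Figure D3:**
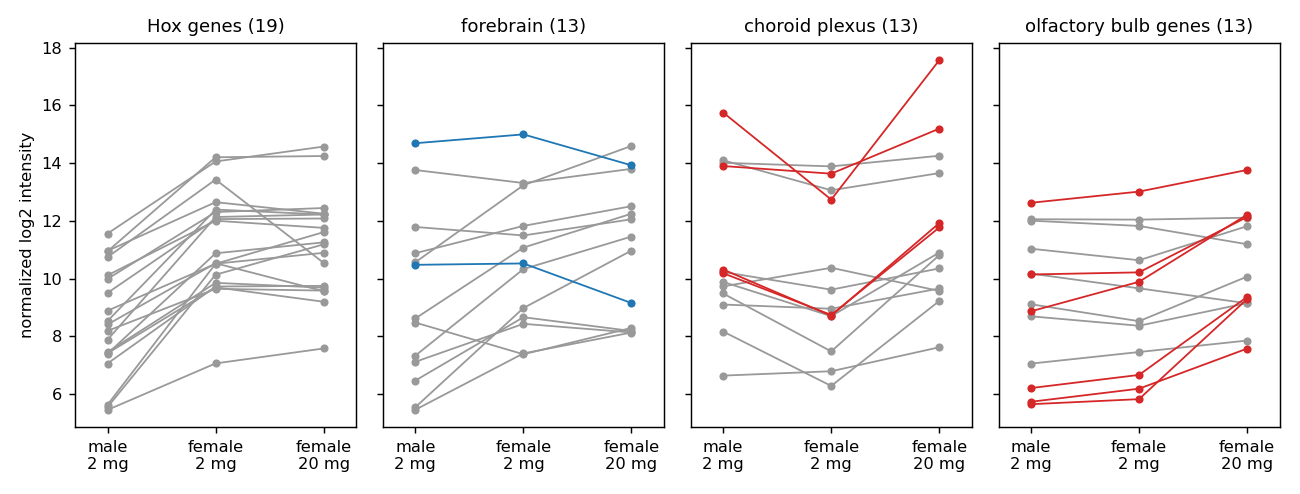
Normalized log2 intensity (vertical axis) of each tested marker on the male 2 mg, female 2 mg and female 20 mg arrays, 1 line per gene; red lines were called higher and blue lines lower on the 20 mg array by limma. The 19 Hox genes rise from the male to the female 2 mg pool, while the red lines of the choroid plexus and of the bulb genes end highest on the 20 mg array.

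Among the markers of cerebellar neurons limma called 2 higher and 0 lower, where it called 1.74% and 3.29% of all tested probes. Of 17 genes of the granule cell lineage limma called 1, Reln, the secreted glycoprotein reelin that guides neuronal migration, which rose from 6.67 and 6.99 to 8.28 (by 0.96 with normexp, against 1.45). Atoh1, the factor that defines granule cell precursors, stood at 9.33, 9.77 and 8.77. The median difference of the lineage was -0.13. Of 13 Purkinje cell genes 0 were called by limma, with 2 higher and 3 lower at an unadjusted p under 0.05, and their median difference was -0.07. The largest of these differences was that of Pvalb, which encodes the calcium buffer parvalbumin, at 10.27, 10.04 and 9.11. Among 11 genes of cerebellar interneurons and nuclei, Tbr1, a T-box factor of the medial nuclei that also marks bulb and cortical neurons, rose from 11.44 and 9.63 to 12.99 (by 1.54 against the female 2 mg array alone), and the other 10 were not called.

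The down-regulated genes had larger differences. Clpx, the unfoldase of the mitochondrial ClpXP protease, stood at 12.03 on the female and 12.06 on the male 2 mg array and at 6.11 on the 20 mg array (difference -5.93, SE 0.27, limma adjusted p = 8.56e-06; probe at chr9:65177803-65177862). Ttc5, a tetratricopeptide cofactor of the p53 response, fell from 12.03 and 11.56 to 7.36, while its second probe differed by 0.38. Rsl24d1, a factor of 60S ribosome assembly, fell from 10.39 and 10.38 to 6.30. Its other probes differed by -4.50 and -1.14, and the first of these was also called. Mgst3, a microsomal glutathione S-transferase, fell from 14.15 and 13.51 to 9.69, and its second probe fell by 4.26.

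The rest of this group also fell below both 2 mg arrays. Snd1, an RNA-binding nuclease of the RNA-induced silencing complex, fell from 10.82 and 10.15 to 6.33. Slc6a2, the noradrenaline transporter, fell from 9.91 and 10.20 to 6.60, and the adhesion molecule Igsf11 fell from 8.98 and 8.59 to 5.42. Ubfd1, a protein with a ubiquitin-like domain, fell from 14.68 and 14.20 to 10.66, with a second probe at -0.72. Sp140, a nuclear body protein of leukocytes, fell from 11.96 and 10.84 to 7.55, with a second probe at -0.94, and Gm6588 fell from 8.26 and 8.32 to 4.56. With normexp the differences of Gm6588 and Igsf11 were -1.77 and -2.23. The 2 mg arrays lay 1.12 apart in Sp140 and 0.67 apart in Snd1.

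Probes of 1 gene often differed in their result. Among RefSeq genes with several tested probes, 76 had a probe that met the fold rule downward and in 10 of them every tested probe did. The other 88 probes of these 76 genes had a median difference of -0.04, and limma called 5 of them lower. Upward, 61 genes had such a probe and in 1 every tested probe met the rule. The other 81 probes had a median difference of 0.41, and limma called 6 of them higher.

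The leading genes were not alike on the other 20 mg arrays, which lie on other slides. With all 6 arrays given 1 distribution, Clpx stood at 10.47 and 10.51 on the female and male 2 mg arrays and at 4.91 on the 20 mg array of their slide. It stood at 10.65 on the other female 20 mg array and at 10.85 and 10.47 on the male 20 mg arrays. Rsl24d1 stood at 8.85 and 8.84 at 2 mg, 5.08 on the same slide, 11.65 on the other female and 8.34 and 8.97 on the male 20 mg arrays.

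Other leading genes lay on the same side on some of these arrays. Ubfd1 stood at 13.20 and 12.71 at 2 mg and 9.11 on the same slide, then at 9.99 on the other female and 12.16 and 11.47 on the male 20 mg arrays, all of them lower than at 2 mg. Mgst3 stood at 12.66 and 12.01 at 2 mg and 8.18 on the same slide, then at 9.76, 12.05 and 11.55 in that order, and Ttc5 at 10.48 and 10.01, then 6.02, then 9.70 and 9.28 on the male arrays. Gm6588 stood at 6.85 and 6.91 at 2 mg, 3.64 on the same slide and 5.26 on male replicate 2, and not well above background on the others.

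Among the higher genes, male 20 mg replicate 1 lay above both 2 mg arrays in several. Slc4a7 stood at 11.34 and 10.28 at 2 mg and 14.28 on the same slide, then at 11.17 on the other female array, 12.57 on male replicate 1 and 11.03 on male replicate 2. Dstyk stood at 5.93 and 6.47, then 8.28 on the same slide and 8.06 on male replicate 1. Slc7a11 (4.94 and 4.86, then 6.77 and 6.65) and 9130024F11Rik (7.96 and 6.50, then 9.86 and 9.58) also stood above both 2 mg arrays on both of these 20 mg arrays. On male replicate 2, Dstyk (4.90), Slc7a11 (3.44) and 9130024F11Rik (5.13) were not well above background, nor were they on the other female array. Sp8 stood at 8.37 and 7.42 at 2 mg and 10.67 on the same slide, then at 7.43 and 5.42 on the male 20 mg arrays. Mid1 stood at 4.77 and 5.05 at 2 mg, 6.79 on the same slide and 7.25 and 6.03 on the male 20 mg arrays. Tfap2e was well above background on none of the other 20 mg arrays. The other female 20 mg array is dim, with 23.3% of probes well above background. These comparisons share their 2 mg arrays.

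Clustered histone genes were the gene list with the most down-regulated members. Most of their mRNAs are made in S phase and end in a stem-loop in place of a poly(A) tail. Of 42 tested, limma called 20 lower and 0 higher, against 3.29% and 1.74% of all tested probes. At an unadjusted p under 0.05, 23 were lower and 0 higher, against 11.0% and 11.2%. The fold rule was met downward by 10, against 1.56% of all tested probes. Below both 2 mg arrays lay 37, as did 38.8% of all tested probes. The median difference was -0.83, against 0.02 over all tested probes. Hist1h2ab, an H2A gene, fell from 13.42 and 13.67 to 10.33 (difference -3.21, SE 0.22, limma adjusted p = 7.88e-05). Hist2h2bb, an H2B gene, fell from 10.10 and 9.97 to 7.32, and the linker histone gene Hist1h1e fell from 12.55 and 12.94 to 10.65. The H4 genes Hist1h4k and Hist2h4 fell from 14.77 and 14.92 to 13.04 and from 14.66 and 14.83 to 12.84. In Hist2h4, 1 of 2 tested probes was called. The brightest of the called members had the smallest differences, as in Hist1h2ah with 17.01, 17.13 and 16.23. Histone genes of 1 type are near copies, so their probes can share signal.

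Cell cycle genes gave no call. Of 20 tested, limma called 0, with 0 higher and 2 lower at an unadjusted p under 0.05, and the median difference was -0.12. Mcm2, a subunit of the replicative helicase, stood at 10.46, 10.61 and 9.50, and Top2a, a topoisomerase of dividing cells, at 9.02, 9.62 and 9.57. On the scale of all 6 arrays the histone genes had a median level of 10.25 and 10.47 at 2 mg and 8.84 on the 20 mg array of the slide. Their median was 10.17 and 10.45 on the male 20 mg arrays and 7.76 on the dim female one, where 15 of 42 were well above background.

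Some structural RNAs were also lower. Rn18s, the 18S ribosomal RNA, fell from 17.13 and 17.72 to 13.81 (difference -3.61, SE 0.21, limma adjusted p = 3.99e-05). Rnu1b6 and Rnu2, the U1 and U2 RNAs of the spliceosome, fell from 14.03 and 14.11 to 10.89 and from 9.97 and 9.39 to 6.30. In a list of 10 structural and small RNAs, also drawn up after values had been seen, limma called these 3 lower and 0 higher. At an unadjusted p under 0.05, 5 were lower and 0 higher, against 11.0% and 11.2% of all tested probes. The median difference was -0.45, with 6 below both 2 mg arrays and 2 above both, against 38.8% and 42.0%. Level members were Rn4.5s at 19.14, 19.14 and 19.22 and the RNase MRP RNA Rmrp at 9.90, 9.95 and 9.93. On the scale of all 6 arrays, Rnu1b6 stood at 12.54 and 12.62 at 2 mg, at 9.35 on the 20 mg array of the slide, and at 10.85 and 16.28 on the male 20 mg arrays, so the 20 mg arrays spanned both sides of the 2 mg level.

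**Figure D4:**
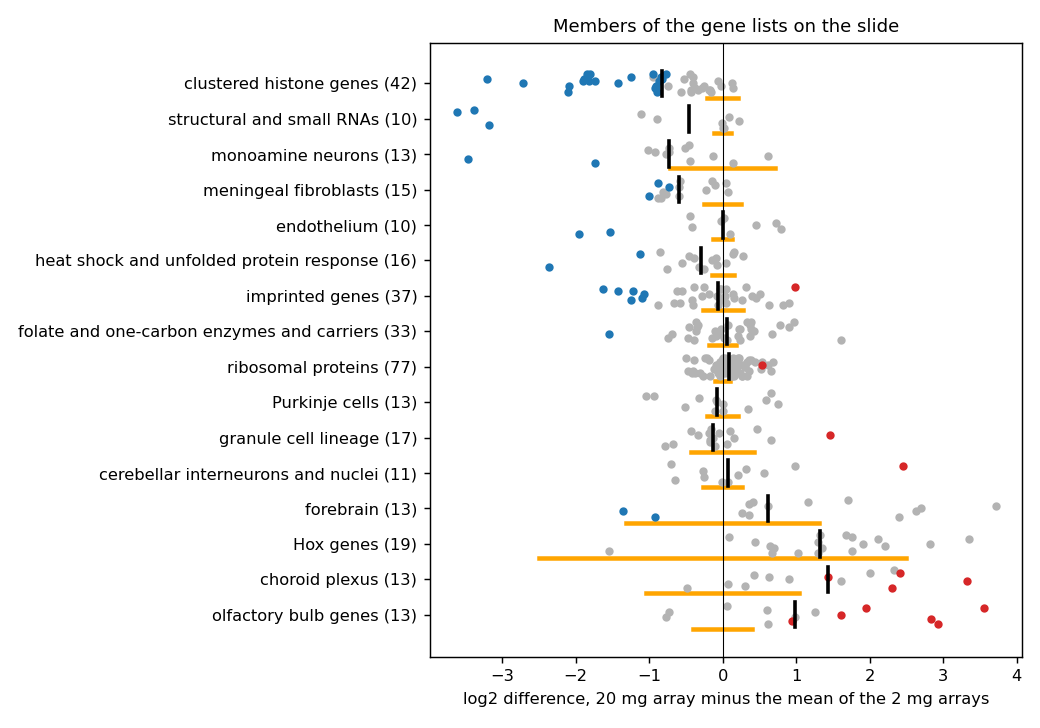
Log2 difference (horizontal axis) of each tested member of 16 gene lists, with the number tested in brackets; red points were called higher and blue points lower by limma, black bars are medians, and orange bars span the median gap between the 2 mg arrays on either side of 0. Histone genes have a median of -0.83 with a narrow gap, while the Hox median of 1.32 lies within a wider gap.

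Noncoding regions took the largest share of the lower probes. These are intergenic stretches that the array design lists as likely sources of long noncoding RNA (lincRNA), which act in part as scaffolds for chromatin regulators and in many cases have no known role. Of 7180 tested region probes, 256 (3.57%) met the fold rule downward and 29 (0.404%) upward, against 186 (0.93%) and 128 (0.64%) of 20005 RefSeq mRNA probes. Their median difference was -0.15, against 0.07 for RefSeq mRNA probes. Of 3280 regions tested, 181 had a probe that met the rule downward and 23 had one upward. Of the 150 regions with a lower probe and at least 2 tested probes, 48 had at least 2 lower probes and in 17 every tested probe met the rule.

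The probes printed here are the 2 region probes that fell furthest below the nearer 2 mg array, then 1 from a region where every tested probe met the rule, and an upward probe from a region with a second one. The letters are the array probes as designed, and positions of the regions are in mm9.
chr5:22801058-22939737, forward strand: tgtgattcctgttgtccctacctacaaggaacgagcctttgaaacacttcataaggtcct
chr8:111766396-111772271, forward strand: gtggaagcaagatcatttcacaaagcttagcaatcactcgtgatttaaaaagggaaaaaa
chr14:65431652-65437902, forward strand: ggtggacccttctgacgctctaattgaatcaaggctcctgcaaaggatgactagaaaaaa
chr9:7214754-7225700, forward strand: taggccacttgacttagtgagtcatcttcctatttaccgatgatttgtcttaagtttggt
The first of these probes gave the largest difference among the tested probes, from 12.79 and 12.63 on the 2 mg arrays to 4.94 on the 20 mg array (difference -7.77, SE 0.28, limma adjusted p = 1.14e-06). In the region of this first probe, 1 of 4 tested probes met the rule, and the differences ranged from -7.77 to 0.07. The second fell from 10.16 and 10.11 to 4.72, while the 2 tested probes of its region differed by -5.41 and 0.49. The third fell from 11.33 and 10.61 to 7.02, and all 4 tested probes of its region met the rule. The fourth, from a region in which 2 of 4 tested probes met the rule upward, rose from 5.80 and 6.41 to 8.49.

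In some regions the fall ran through every tested probe. All 6 tested probes of chr4:126009815-126015875 (forward strand) met the rule, with median levels of 9.59 and 9.73 on the 2 mg arrays and 7.12 on the 20 mg array and differences from -3.29 to -2.43. All 6 tested probes of chr11:95627874-95640824 (reverse strand) did as well, from 10.17 and 9.83 to 7.37. All 4 tested probes of chrX:150159252-150181275 (reverse strand) did so too, from 8.16 and 8.08 to 5.79. Probes of 1 region read the same transcribed stretch and are not independent. In chr11:3538125-3554450 (forward strand), 4 of 9 tested probes met the rule and the differences ranged from -5.19 to 0.13.

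Their sequence was compared with that of all tested region probes. Of the 256, 14 (5.47%) ended in a run of at least 4 A at the 3′ end of the probe, as did 2.55% of all tested region probes, and their median GC content was 45%, the same as that of all tested region probes. Over all tested probes, the median difference was 0.11 for the 9767 probes with a GC content of at most 36.7% and -0.10 for the 7994 probes with at least 46.7%. On the scale of all 6 arrays, the 256 probes had a median level of 7.69 and 7.21 on the 2 mg arrays and 5.30 on the 20 mg array of the slide, then 5.84 and 8.44 on the male 20 mg arrays, and 7.87 on the dim female one, where 90 were well above background.

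**Figure D5:**
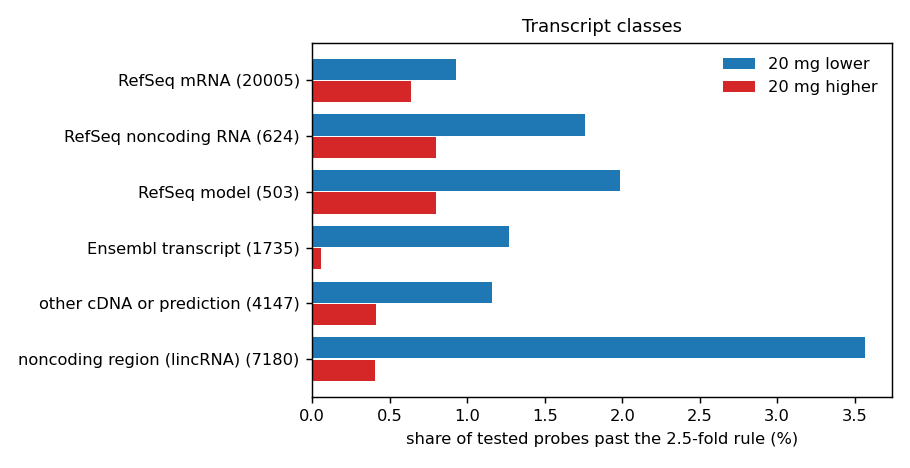
Share of tested probes (horizontal axis, %) that met the fold rule with the 20 mg array lower (blue) or higher (red), by transcript class, with the number tested in brackets. The lower share is 3.57% for noncoding regions and 0.93% for RefSeq mRNA.

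Within the monoamine list, 2 genes of noradrenaline handling were down-regulated. These 2 of 13 tested genes met the fold rule downward, against 1.56% of all tested probes. Below both 2 mg arrays lay 8 of the 13 and above both 0, against 38.8% and 42.0%. Dbh, the enzyme that makes noradrenaline from dopamine, fell from 11.63 and 11.64 to 9.90 (difference -1.73, SE 0.25, limma adjusted p = 0.00395), beside the fall of Slc6a2 given above. The other 11 of 13 tested genes were not called, and the median difference was -0.72 against a median gap of 0.71 between the 2 mg arrays. Slc6a4, the serotonin transporter, stood at 9.13, 11.13 and 9.40, so it differed more between the 2 mg pools than between doses. On the scale of all 6 arrays, Slc6a2 stood at 8.39 and 8.67 at 2 mg and 5.34 on the 20 mg array of the slide. It stood at 9.73 and 7.58 on the male 20 mg arrays and was not well above background on the other female one.

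Of 15 tested genes of meningeal fibroblasts, limma called 3 lower and 0 higher, 10 were lower and 0 higher at an unadjusted p under 0.05 (11.0% and 11.2% of all tested probes), and 12 lay below both 2 mg arrays (38.8% of all). The median difference was -0.60 with a median gap of 0.25. The collagen genes Col1a1 and Col1a2 fell from 13.34 and 13.45 to 12.52 and from 14.62 and 14.69 to 13.93. Ptgds, the prostaglandin D synthase of the leptomeninges, fell from 17.25 and 16.92 to 16.08. Among 10 endothelial genes, Cdh5, the cadherin of vascular junctions, fell by 1.95. Kdr, a receptor for vascular endothelial growth factor, fell from 13.78 and 13.33 to 12.02, with 1 of its 2 tested probes called. Cldn5, a tight junction protein of the same cells, stood at 13.09, 13.20 and 13.16, and the median of the endothelial list was 0.00.

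Of 33 tested enzymes and carriers of folate metabolism limma called 1, with 5 higher and 3 lower at an unadjusted p under 0.05 (11.2% and 11.0% of all tested probes), and the median difference was 0.07. Amt, the aminomethyltransferase of the glycine cleavage system, fell from 6.57 and 6.17 to 4.83, with a difference of -1.54 that was -0.52 with normexp. Slc46a1, the proton-coupled folate transporter, stood at 11.36, 11.16 and 10.52, and Mthfd2, a mitochondrial folate dehydrogenase, at 10.76, 10.91 and 10.15. Of 15 genes that write, erase or read DNA methylation limma called 1. Zbtb33, which encodes the methyl-CpG binding factor Kaiso, fell from 11.38 and 11.56 to 10.16, where limma called 3.29% of all tested probes lower. Of the 15 genes, 8 lay below both 2 mg arrays and 4 above both, against 38.8% and 42.0% of all tested probes. Uhrf1, which recruits the maintenance methyltransferase, stood at 11.48, 11.88 and 10.69 and was not called.

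Imprinted genes, expressed from 1 parental allele, gave 6 lower and 1 higher call among 37 tested, with a median difference of -0.06, against 3.29% lower and 1.74% higher over all tested probes. Plagl1, a zinc-finger factor, fell from 15.14 and 14.48 to 13.19, and 2 of its 4 tested probes were called. H19, a maternally expressed noncoding RNA, fell from 14.95 and 14.68 to 13.57, and 2 of its 7 tested probes were called. Peg10, derived from a retrotransposon, fell from 8.44 and 7.95 to 6.77 (by 0.94 with normexp, against 1.42), and Grb10, an adaptor that restrains insulin signalling, fell from 9.37 and 9.56 to 8.24. Inpp5f and Ppp1r9a fell by 1.10 and 1.07. In each of Peg10, Inpp5f and Ppp1r9a, 1 of 2 tested probes was called. Snrpn, a paternally expressed splicing protein gene, rose from 13.77 and 14.21 to 14.97, with 1 of its 3 tested probes called. No imprinted gene met the fold rule.

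Of 31 transcription factors, imprinted genes and neural genes that the study names in its text, 28 were tested here, and limma called Lhx6, H19 and Snrpn, as given above. Over all tested probes limma called 1.74% higher and 3.29% lower. Of the 28 genes, 9 lay above both 2 mg arrays and 11 below both, against 42.0% and 38.8% of all tested probes. The study chose these genes with these arrays in hand. Hoxc11 was not well above background on any of the 3 arrays. Peg12, a paternally expressed gene, stood at 10.41, 10.57 and 10.89, and Mirg, a noncoding RNA of the Dlk1 and Meg3 domain, at 13.49, 13.89 and 13.67, neither of them called. Esr1, the oestrogen receptor, stood at 5.92, 5.74 and 6.29, and Sp3, a zinc-finger factor, at 9.93, 9.77 and 8.96. Fmr1, the gene of fragile X syndrome, stood at 12.03, 12.10 and 12.32.

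Of 154 neural genes that the study tabulates by pathway, 148 were tested and limma called 2 higher and 7 lower, with a median difference of -0.12. That is 1.35% and 4.73% of them, against 1.74% and 3.29% of all tested probes. These genes were also chosen on these arrays. Adcy3, the adenylyl cyclase of olfactory cilia and of primary cilia, rose from 5.63 and 5.70 to 7.29. The GTPase gene Nras rose from 12.28 and 12.63 to 13.52, with 1 of its 3 tested probes called. Kcnc1, a fast potassium channel, fell from 12.39 and 11.90 to 10.07, with 1 of its 3 tested probes called, and Dvl3, a Wnt signal transducer, fell from 13.37 and 12.94 to 11.21. These were the only falls among them that met the fold rule. Smaller falls were those of the pacemaker channel gene Hcn2, from 15.31 and 15.17 to 14.29, the glutamate receptor gene Grm4, from 9.99 and 9.50 to 8.43, and the tachykinin receptor gene Tacr2, from 15.76 and 15.61 to 14.81. The kinase gene Camk2b fell by 0.65 and the axon guidance receptor gene Robo1 by 0.87. In each of Hcn2, Grm4 and Camk2b, 1 of 2 tested probes was called. Some directions were opposite to those the study tabulates, which compares the doses within each sex. It lists Nras as lower and Robo1 as higher in female pups, and Tacr2 as higher in male pups. The other called genes went in the direction it tabulates.

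Among 16 heat shock and unfolded protein response genes limma called 2 lower and 0 higher, with 7 lower and 0 higher at an unadjusted p under 0.05, against 11.0% and 11.2% of all tested probes. Sdf2l1, an endoplasmic reticulum chaperone cofactor, fell from 8.86 and 8.68 to 6.41 and Chac1, a glutathione-degrading enzyme, fell from 12.38 and 12.05 to 11.09. Of 17 immediate early genes limma called 0, with 1 higher and 2 lower at an unadjusted p under 0.05, and Fos stood at 9.86, 8.57 and 8.36. Of 17 hypoxia and glycolysis genes Aldoa, an aldolase, was called, falling by 0.53. Of 77 ribosomal protein genes Rps7 was called, rising by 0.53, and the median of 0.08 turned to -0.21 when arrays were aligned at their 75th percentile. Of 76 subunits of oxidative phosphorylation, Ndufs4 was higher by 0.64 and Ndufa4 lower by 0.72.

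Markers of the remaining cell types were mostly not called. Over all tested probes, 11.2% were higher and 11.0% lower at an unadjusted p under 0.05 by limma. Of 9 midbrain genes, 6 lay below both 2 mg arrays and 0 above both, against 38.8% and 42.0% of all tested probes. Their median difference was -0.69, with a median gap of 1.03 between the 2 mg arrays. Of 12 microglial genes Itgam, a complement receptor chain, fell from 16.64 and 16.65 to 15.88 with 1 of 3 probes called. By limma 0 of 12 astrocyte and Bergmann glia genes (0 higher and 2 lower at an unadjusted p under 0.05), 0 of 9 midbrain genes (0 and 5) and 0 of 8 cholinergic and motor neuron genes (0 and 0) were called. The same held for 9 erythroid genes (0 and 1), 10 skeletal muscle genes (1 and 0), 9 cartilage and bone genes (0 and 0) and 3 pituitary and pineal genes (0 and 1).

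Some transcripts were well above background at 1 dose alone, and their differences are bounds. On the 20 mg array, the brightest of the slide, 3560 probes were well above background that were so on neither 2 mg array, and 219 were so on both 2 mg arrays but not on it. The bound was past 2.5-fold at 50 of the former and at 188 of the latter. A bound sets the bright level against the higher of the dim probe's own value and the lowest signal well above background on that array. Ms4a15, a membrane protein of the MS4A family, stood at 9.84 on the 20 mg array and at 4.22 and 3.32 on the 2 mg arrays, neither well above background, so it was at least 27.8-fold higher. Slc6a18, a neutral amino acid transporter, was at least 10.5-fold higher and AI606473 at least 7.36-fold higher. In the other direction, Pdia4, a disulfide isomerase of the endoplasmic reticulum, stood at 9.59 and 9.24 on the 2 mg arrays and at 4.26 on the 20 mg array, at least 35.6-fold lower. Lmod2, an actin filament protein of muscle, stood at 7.37 and 10.72 and was at least 29.6-fold lower on the 20 mg array, a bound of 9.29-fold against the female and 94.5-fold against the male 2 mg array alone, and Lgr4, a receptor for R-spondins, was at least 16.1-fold lower. Noncoding regions made up 130 of the 219 probes seen at 2 mg alone (59.4%) and 1396 of the 3560 seen at 20 mg alone (39.2%), against 29.2% of all probes on the array.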

How the data were processed

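The authors deposited the output of Agilent Feature Extraction 10.7.3.1 for each 1-colour array, in which the processed signal is an intensity with the background subtracted and no scaling between arrays, and a value table with log2 intensities that the authors quantile normalized over 6 arrays. Here, outlier spots were left out, the log2 intensities of each non-control probe were averaged, quantile normalized over these 3 arrays and given a floor of 10, and probes well above background on all 3 arrays were kept. Differences were tested with limma 3.58.1 (R 4.3.3, eBayes with trend, prior df 9.44) with Benjamini-Hochberg adjustment over 34194 probes, and the steps were tested on simulated data. The p-values rest on the spread between the 2 mg pools, 1 of each sex. The gap of a probe (1 residual df) is combined with a spread estimated over all tested probes by signal (prior df 9.44), which carries more weight. The precision of the p-values is limited by how few arrays there are. A gene is represented by its brightest tested probe. Named genes are the 12 of each direction with a RefSeq symbol that met the fold rule furthest from the nearer 2 mg array, list members that were called, up to 2 members of uncalled lists, sex-linked transcripts and genes the study names. Marker levels that show how the pools differ (Hox, forebrain, hypothalamic, choroid plexus, Purkinje and other uncalled genes given as contrast) were added after their values were seen. The members and lists were chosen with earlier results of these data known. Of 21887 RefSeq accessions, 98.0% matched a RefSeq gene table (GRCm38.p6), used for names alone. Probe positions are those of the array design (mm9). Whether the 20 mg pool came from the first or a repeated RNA extraction is not given in the sources used here. Columns of samples outside the series numbered 0. Some items are not reported here.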

Additional observations from a re-analysis of the deposited data

How the results depend on the processing

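No paired analysis was possible because the 20 mg FA group has 1 array on the slide. The limma fit could not be run without either 2 mg array, as no residual degree of freedom would be left. By limma, 594 higher and 1125 lower probes became 260 and 639 with the authors' value table, 98 and 383 without a trend in the empirical Bayes step, and 893 and 10 without a filter on dim probes, where the balance of directions turned. Requiring signal on at least 2 of the 3 arrays left 214 higher and 767 lower. By the fold rule, 184 higher and 533 lower probes became 73 and 308 with normexp background correction, 64 and 292 without background correction, and 595 and 918 at a 2-fold threshold. Without a filter on dim probes 523 were higher, beside 784 lower. Leaving out either 2 mg array gave 378 to 710 higher and 708 to 1053 lower probes by the fold rule, the larger counts without the male 2 mg array. Counts under the other alternatives, among them alignment at the 75th percentile (420 and 1264 by limma, 137 and 641 by the fold rule), stayed within 1.5 times. The cause of these shifts was not tested.

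All 89 named genes that had been called kept their direction with alignment at the 75th percentile, normexp background correction and the authors' value table. The same held against each 2 mg array alone. These genes were called for lying far from the 2 mg arrays, and each setting used the same 3 arrays. The kept directions were thus largely built into the choice of genes and give no support. In size, 11 of the 89 shrank by over 1.5 times with normexp, among them Slc7a11 (to 1.27), Mid1 (to 1.23), Peg10 (to -0.94), Reln (to 0.96) and Slc17a7 (to 0.85), and Rps7 shrank to 0.32 with alignment at the 75th percentile. None moved by over 1.5 times with the authors' value table. Of 34 list medians, 3 changed sign with alignment at the 75th percentile, 6 without the female and 5 without the male 2 mg array, and 1 of these was beyond 0.3 at first, that of the hypothalamic neuropeptides, which turned to 0.16 without the female 2 mg array. Dim probes limit what can be said of transcripts that were not well above background on an array.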
